A study of Mus musculus with 12 samples.

Results

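CD4 single positive (SP) thymocytes pass through stages in the thymic medulla that can be told apart by surface markers, and the step from SP1 to SP2 is marked by loss of the 6C10 epitope. The comparison covers 6 of the 12 Affymetrix Mouse Genome 430 2.0 arrays of the series, namely 3 arrays of SP2 cells and 3 arrays of SP1 cells, taken by the subset named in the sample titles, with all 45037 probe sets. SP2 cells were Qa-2-6C10-CD69+ and SP1 cells were Qa-2-6C10+CD69+. Both came from thymi of C57BL/6 mice of 6 to 8 weeks and shared the gate CD4+CD8-CD25-NK1.1-. The thymi of several mice were pooled for each preparation, anti-CD8 antibody and complement were used against CD8+ cells before the sort, and each array therefore shows a pool of mice and not 1 animal. The other 6 arrays hold the later subsets SP3 (6C10-CD69-, Qa-2-) and SP4 (6C10-CD69-, Qa-2+), which entered the fit for the estimate of the spread and are given below for the level at later stages.

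The 6C10 antibody binds a glycosylation-dependent form of Thy-1, a small glycoprotein abundant on thymocytes. CD69 appears after positive selection and, by holding down the sphingosine 1-phosphate receptor at the surface, keeps young SP cells in the thymus. During maturation in the medulla the cells respond to CCR7 ligands, lose CD24, are screened for self-reactivity, and later gain Klf2 and its targets, which equip them to leave. The comparison asks which transcripts differ between CD69+ cells that have lost 6C10 and those that still carry it.

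Each value is a linear intensity in array units. The medians of the 12 arrays lay between 30.5 and 32.8. SP2 and SP1 arrays of the same replicate number are called pair 1, 2 and 3 here. Among 19002 probe sets with a mean intensity over 50, the SP2 minus SP1 difference exceeded 2-fold for 114 in pair 1, 904 in pair 2 and 66 in pair 3. Of these, 99 were lower in SP2 in pair 1, 845 in pair 2 and 13 in pair 3. Across these probe sets, which share arrays and are not replicates, the differences of pairs 1 and 2 had r = 0.504, those of pairs 1 and 3 had r = 0.0854 and those of pairs 2 and 3 had r = -0.05. The 3 pairs thus differed in how far SP2 and SP1 stood apart, and pair 2 held most of the large differences. SP2 replicate 2 also stood apart in 37 genes of the respiratory chain and ATP synthase, whose summed intensity was 66012, 44275 and 72692 in SP2, against 70011, 75395 and 73464 in SP1.

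Cd4, Cd69 and Il2ra, which the sort used, were set side by side first. Cd4 had intensities of 935, 846 and 541 in SP2 and 731, 958 and 608 in SP1. Cd69 had 854, 1010 and 493 in SP2 and 868, 1112 and 473 in SP1. Il2ra, which encodes the gated-out CD25, had 49.7, 46.4 and 61.6 in SP2 and 80.6, 32.4 and 37.1 in SP1. All 3 overlapped between the subsets.

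Markers of cells outside the gate set the SP1 arrays apart from one another. The 16 measured markers of cortical double positive thymocytes, the CD4+CD8+ precursors that rearrange the T cell receptor α chain, summed to 4579, 2926 and 2923 in SP2, against 10995, 10983 and 2914 in SP1. The sum was thus high in SP1 of pairs 1 and 2, while both subsets of pair 3 lay at the level of the low SP2 arrays. In the later subsets it ranged from 4552.5 to 18290 in SP3 and from 3042.6 to 5895.4 in SP4. High values were thus not particular to SP1, and in 14 of the 16 the mean was lowest in SP2. Rag1, a subunit of the recombinase, had intensities of 299.5, 34.8 and 83.7 in SP2 and 1258, 1111 and 20 in SP1. Cd8a had 272, 82.9 and 34.7 in SP2 and 765, 1083 and 55.5 in SP1, and Dntt, which adds bases at receptor joints, had 766, 207 and 188 in SP2 and 2315, 2037 and 159.7 in SP1. For Rag1 and Dntt the order of SP2 and SP1 was turned in pair 3, and none of the 16 passed the test. Their median log2 fold change was -1.38, with -1.45, -2.87 and -0.01 in pairs 1, 2 and 3. In 3 of 3 pairs 6 of 16 were lower in SP2, against 13.7% of all genes.

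Other lists shared this pattern. The summed level of 17 B cell markers was 2862, 1304 and 1622 in SP2 and 6331, 6663 and 1365 in SP1, and that of 23 myeloid and dendritic cell markers was 3155, 2005 and 3574 in SP2 and 4008, 3984 and 2289 in SP1. Both sums were lower in SP2 in pairs 1 and 2 and higher in SP2 in pair 3. The defining markers were not at 0: Cd79b, a chain of the B cell receptor, had 41.2, 25.6 and 25.7 in SP2 and 81.2, 109 and 46.0 in SP1, and Lyz2 of myeloid cells had 107, 59.5 and 126 in SP2 and 329, 283 and 56.0 in SP1. Sums of 20 thymic epithelial and stromal markers stayed between 582 and 913 in SP2 and between 604 and 805 in SP1. In bulk samples, fewer cells of a type and less RNA per cell cannot be told apart, and the part that these markers have in the lower genes below was not tested, so each result is given by pair.

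**Figure D1:**
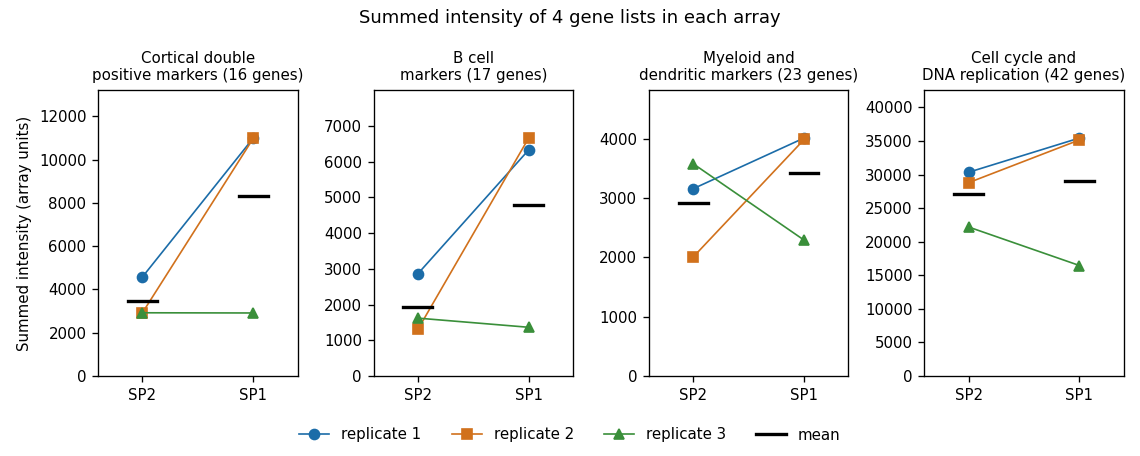
Summed intensity in array units (vertical axis) of 4 gene lists in each of the 3 SP2 arrays and 3 SP1 arrays, with lines joining arrays of the same replicate number and black bars at the means. Cortical double positive markers summed to 10995 and 10983 in SP1 replicates 1 and 2, against 2914 in SP1 replicate 3 and 2923 to 4579 in SP2.

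Few transcripts passed the test between SP2 and SP1. In limma fitted to all 12 arrays without the pairs, no probe set was called at an adjusted p under 0.05 (0 of 45037, 0%, in either direction), the smallest adjusted p was 0.652, and 1237 had an unadjusted p under 0.05, of which 764 were higher and 473 lower in SP2. With the replicate number as a block, 4 probe sets rose in SP2 by more than 2-fold (0.00888% of those tested), and 0 fell. In that limma fit 3658 probe sets had an unadjusted p under 0.05, 2018 higher and 1640 lower. The arrays of the same number thus shared much of their spread, and every call below from all 12 arrays at the main settings rests on the block. With replicate 3 left out, some lower probe sets also passed without the block, as given in the last section.

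Among the 4 was Igfbp4, which encodes a secreted binding protein of insulin-like growth factors. Its probe set 1423756_s_at had intensities of 1171, 1078 and 1206 in SP2, against 545, 635 and 423 in SP1. All SP2 arrays lay above all SP1 arrays, and the log2 differences within pairs were 1.08, 0.75 and 1.48. Igfbp4 rose in the limma fit with the block (log2 fold change 1.10 with a standard error of 0.14, adjusted p = 0.0393), and did not pass without the block (adjusted p = 0.652). The other 5 Igfbp4 probe sets had log2 fold changes between 0.67 and 0.94, and that of highest mean missed the threshold (adjusted p = 0.0821 with the block). Igfbp4 averaged 1988 in SP3 and 3200 in SP4, so that SP2 stood between SP1 and the later subsets.

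Probe sets 1428301_at and 1452731_x_at, whose gene the annotation used here does not give, also rose. 1428301_at had 437, 483 and 487 in SP2, against 163, 204 and 259 in SP1, a log2 fold change of 1.13 (adjusted p = 0.0161 with the block). 1452731_x_at had 222, 236 and 223 in SP2, against 76.8, 108 and 109 in SP1, a log2 fold change of 1.11 (adjusted p = 0.0161 with the block). Neither overlapped between the subsets, and both were lower again in SP3, at means of 164 and 85.2. The fourth called probe set, of a gene that is not reported here, rose by a log2 fold change of 1.14 (adjusted p = 0.0369 with the block).

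These calls depended on single arrays. Leaving out any 1 of the 12 arrays in turn gave 0 to 7 higher and 0 to 12 lower probe sets with the block, and 0 were higher without SP1 replicate 1, SP2 replicate 1, SP1 replicate 2, SP3 replicate 2 or SP3 replicate 3. Igfbp4 kept a log2 fold change of 0.96 to 1.24 throughout and passed in 2 of these 12 fits, without SP2 replicate 2 (adjusted p = 0.0135) and without SP4 replicate 1 (adjusted p = 0.0482), with adjusted p up to 0.307 in the others. Limma also weighted the arrays by how closely they followed the model with the block, with SP1 replicate 1 at 3.63 and SP2 replicate 2 at 0.360. With these weights 337 probe sets were higher and 285 lower in SP2. In that fit 69 of the 138 values named by rule passed, among them all 30 genes named by rank and 6 of the 16 named for the study or the sort, so the statements below that a gene did not pass hold for equal weights. The 30 were picked with the block fit of these same arrays, so their passing with weights is no separate support.

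**Figure D2:**
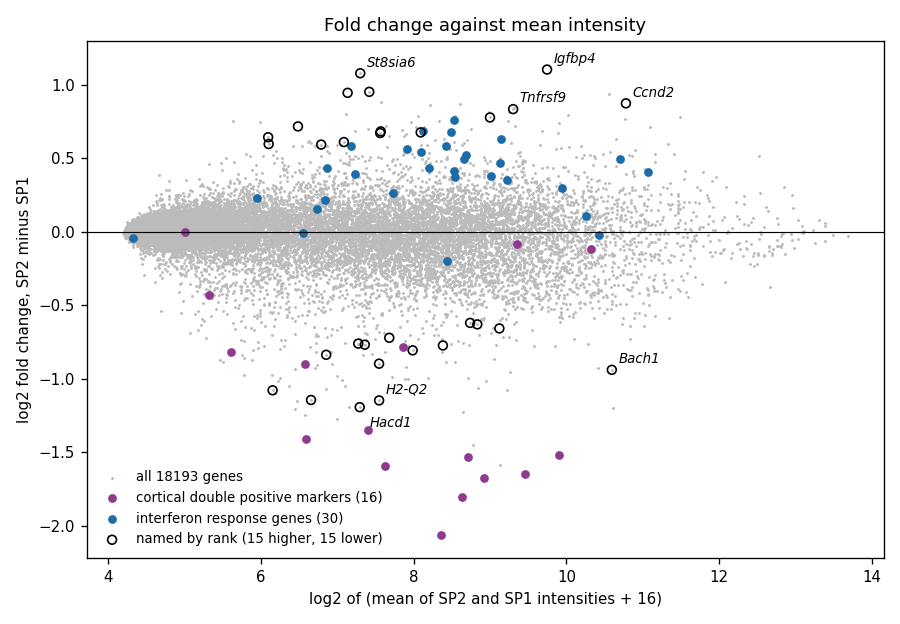
SP2 minus SP1 log2 fold change (vertical axis) against the log2 of the mean of the SP2 and SP1 intensities plus 16 (horizontal axis) for 18193 genes by their probe set of highest mean, with cortical double positive markers, interferon response genes and the 30 genes named by rank marked; rank-named genes are drawn by the probe set of their rank. Double positive markers reach -2.06 (Endou), and 26 of 30 interferon response genes lie above 0.

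Ccnd2, which encodes the cyclin D2 that carries cells into the cycle, came next by rank and did not pass. Its probe set 1430127_a_at had 2359, 2198 and 2200 in SP2, against 1146, 1126 and 1411 in SP1, with no overlap. The log2 fold change was 0.87 ± 0.12 (standard error), at an adjusted p of 0.0566 in limma with the block. All 7 of its probe sets were higher in SP2, with log2 fold changes of 0.74 to 1.01. The mean in SP2 was 2252 ± 92.4, against 1228 ± 159 in SP1 (SD, n = 3 arrays each), and Ccnd2 averaged 1434 in SP3 and 1865 in SP4, so that its level was highest in SP2. It passed with the block when the offset before log2 was 1 (adjusted p = 0.0488), when dim probe sets were left out (0.0336) and after quantile normalization (0.0463).

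None of the other rank-named higher genes passed with equal weights. Tnfrsf9, Itgb7 and St8sia6 are given first, which is not the order of rank. Tnfrsf9, the costimulatory receptor 4-1BB, had 864, 918 and 608 in SP2, against 461, 466 and 377 in SP1 (log2 fold change 0.83, adjusted p = 0.109 with the block). The lowest SP2 array stood above the highest SP1 array, and the means in SP3 and SP4 were lower than both, at 194 and 289.8. Itgb7, the integrin chain that pairs with α4 or αE, had 625, 736 and 535 in SP2, against 358, 403 and 320.2 in SP1 (log2 fold change 0.78, adjusted p = 0.123 with the block). Its level was higher still in later subsets, at means of 790.4 in SP3 and 1252 in SP4. St8sia6, a sialyltransferase, had 182, 212 and 195 in SP2, against 101, 107 and 54.7 in SP1, with no overlap (log2 fold change 1.08, adjusted p = 0.127 with the block), and it averaged 703 in SP4. With array weights and the block the adjusted p in limma was 0.00486 for Tnfrsf9, 0.00749 for Itgb7 and 0.0173 for St8sia6.

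The other rank-named higher genes had log2 fold changes between 0.59 and 0.95, each higher in 3 of 3 pairs, the direction the rank asks for. Ugcg, which makes glucosylceramide, had 162, 249 and 100 in SP2 and 79.2, 112 and 46.9 in SP1. Its subsets overlapped, yet the difference was alike in the pairs, at 0.90, 1.05 and 0.88 on the log2 scale. Irak2, an adaptor of Toll-like and interleukin 1 receptors, had 127, 130.0 and 94.3 in SP2 and 84.2, 75.4 and 57.4 in SP1, with no overlap. Cyth3, an exchange factor for ARF proteins, had 259.6, 349.9 and 350.3 in SP2 and 161, 194 and 228 in SP1, and Trpm1, an ion channel, had 217, 234 and 198 in SP2 and 116, 144 and 129 in SP1. The remaining names are Pyroxd2 (0.95), Nudt6 (0.72), Pxylp1 (0.68), the peptide transporter Slc15a1 (0.64), Slc35g1 (0.61) and Mfsd4a (0.60), given as log2 fold changes. Of the 15, 8 had their highest mean of the 4 subsets in SP2 and 7 in SP4. The rank asks for SP2 above SP1 in each pair, so SP1 could not be highest.

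None of the 15 lower genes passed with equal weights, and for several of them the replicate 3 arrays of both subsets were high. Bach1, a repressor of genes of haem and oxidative stress, had 524, 569.5 and 2170 in SP2, against 1059, 1226 and 3628 in SP1 (log2 fold change -0.94, adjusted p = 0.0821 with the block). The subsets overlapped and both arrays of replicate 3 were high, while the log2 differences within pairs were -0.99, -1.08 and -0.74. The other Bach1 probe set had a log2 fold change of -0.61 (adjusted p = 0.359 in limma with the block). Its differences within pairs were less even, at -0.69, -0.18 and -0.95. Nr4a2, an orphan nuclear receptor induced by T cell receptor signals, had 112, 98.6 and 503 in SP2 and 198, 204 and 793 in SP1. Maff, a small Maf protein, had 61.6, 35.3 and 271 in SP2 and 109.8, 114 and 436 in SP1, and Bambi, a decoy receptor of the TGF-β family, had 108, 71.6 and 329 in SP2 and 161, 173 and 585 in SP1. In 10 of the 15 the replicate 3 array was the highest of its subset in both SP2 and SP1.

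Of the lower genes, Golm2, Atxn1, Hacd1 and Spats2 had no overlap between the subsets, and all the others overlapped. Golm2 had 93.2, 101 and 124 in SP2, against 189, 195 and 189 in SP1, with no overlap (log2 fold change -0.77, adjusted p = 0.117 with the block). Atxn1, the gene of ataxin 1, had 70.7, 62.5 and 65.9 in SP2 and 108, 119 and 174 in SP1, and Hacd1, an enzyme of long-chain fatty acid elongation, had 76.3, 41.5 and 132 in SP2 and 163, 170.1 and 264 in SP1. Neither overlapped, and in Hacd1 replicate 3 was the highest of both subsets. Spats2 had 105, 98.1 and 86.8 in SP2 and 214, 219.8 and 111 in SP1, also with no overlap (log2 fold change -0.76). H2-Q2, a class Ib gene of the major histocompatibility complex, had 126, 94.8 and 57.7 in SP2 and 369, 291 and 90.0 in SP1, high in the SP1 arrays that were also high in double positive markers and overlapping (log2 fold change -1.15, adjusted p = 0.117 in limma with the block, and -1.46 with 0.0387 when replicate 3 was left out). The log2 fold changes of the others were -1.14 for Bex1, -1.08 for BC035044, -0.72 for Med14, -0.66 for the long non-coding RNA Malat1, -0.63 for Tiparp and -0.62 for Tmcc3. All 15 had their highest mean of the 4 subsets in SP1, and 10 had their lowest in SP4. The rank asks for SP1 above SP2 in each pair, so SP2 could not be highest and the order is partly set by the choice.

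**Figure D3:**
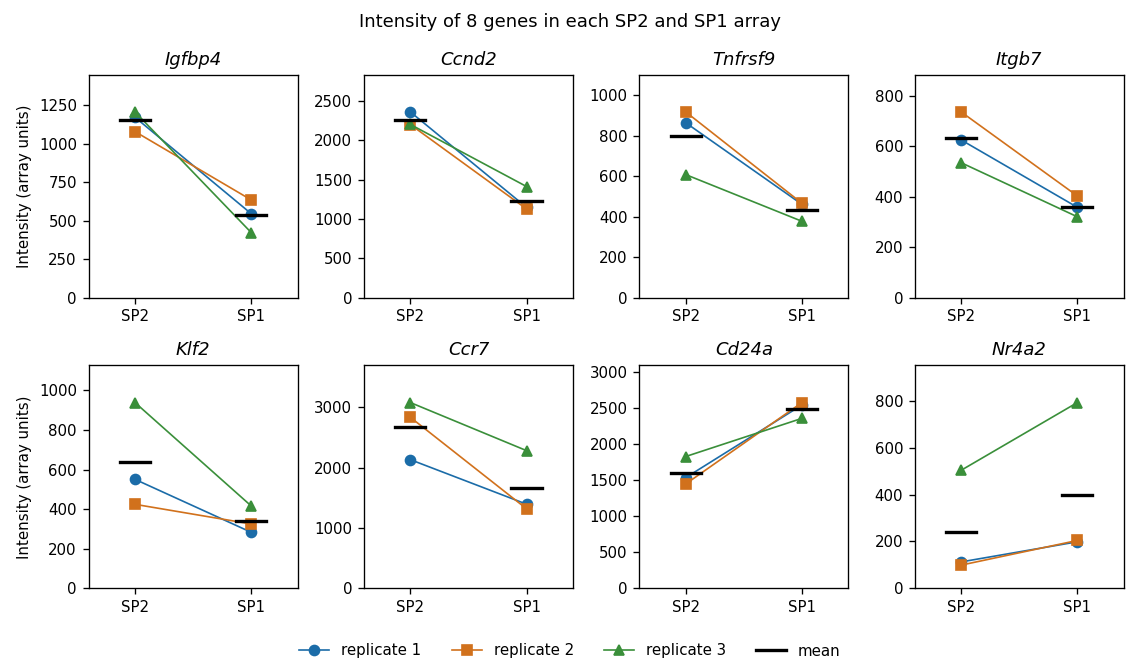
Intensity in array units (vertical axis, from 0) of 8 genes in each SP2 and SP1 array, with lines joining arrays of the same replicate number and black bars at the means of 3 arrays. Igfbp4, Ccnd2, Tnfrsf9, Itgb7 and Klf2 have no overlap with SP2 above SP1, Cd24a has none with SP2 below SP1, and in Nr4a2 and Ccr7 the pairs keep their order although the subsets overlap.

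The study named a group of migration and maturation genes for its arrays, and none of those given here passed in SP2 vs SP1 in either limma fit with equal weights. Its reading of this step also drew on quantitative RT-PCR of separately sorted CD44lo cells. There it reported Ccr7 and Klf2 significantly higher and Ccr9 significantly lower in SP2 than in SP1. For Ccr7 it reported the rise by array as well. By RT-PCR it also reported a mild, significant rise of Cxcr4 in SP2, and more Plxnd1 in SP2 than in SP1. For Plxnd1 it found no significant difference by array. Ccr4 it reported as highest in SP1 and significantly lower in SP2, by array and RT-PCR. In the values below, Cxcr4 and Plxnd1 did not keep 1 direction in the pairs, and Ccr4 was lower but did not pass. With array weights and the block, Ccr7 (adjusted p = 0.0171), Klf2 (0.00572), Cd24a (0.0289), Il2rb (0.0252) and H2-K1 (0.0252) passed in limma. Ccr7, the receptor for the medullary chemokines CCL19 and CCL21, had 2134, 2837 and 3082 in SP2, against 1395, 1318 and 2284 in SP1 (log2 fold change 0.71 ± 0.15, standard error, and adjusted p = 0.183 with the block). It was higher in SP2 in 3 of 3 pairs, and SP2 had the highest mean of the 4 subsets, at 2684. Klf2, the factor that drives egress genes, had 550.5, 424 and 939 in SP2, against 283, 325 and 416 in SP1 (log2 fold change 0.81, adjusted p = 0.171 with the block), with no overlap. Without SP2 replicate 2, Klf2 passed with the block (log2 fold change 1.07, adjusted p = 0.0135).

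Cd24a, the heat stable antigen that thymocytes shed from the surface as they mature, was lower in SP2 in 3 of 3 pairs. Its intensities were 1536, 1448 and 1829 in SP2, against 2545, 2579 and 2359 in SP1, with no overlap (log2 fold change -0.64, adjusted p = 0.251 with the block), and its 3 probe sets had log2 fold changes of -0.75 to -0.41. H2-K1, a classical class I gene, had 7670, 7531 and 5457 in SP2 and 5641, 5411 and 3539 in SP1 (log2 fold change 0.51, adjusted p = 0.193 with the block). Il2rb, the β chain of the interleukin 2 and 15 receptors, had 117, 142 and 108 in SP2 and 77.0, 95.6 and 64.2 in SP1 (log2 fold change 0.55, adjusted p = 0.199 with the block), with no overlap.

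Among the other genes of this group, Ccr9 and Ccr4 were lower and Foxo1 and H2-D1 higher in SP2 in 3 of 3 pairs, while S1pr1, Cxcr4 and Plxnd1 differed in direction between the pairs. S1pr1, the receptor that lets cells leave towards the blood, had 169, 137 and 268 in SP2 and 185, 178 and 96.4 in SP1. It was lower in SP2 in pairs 1 and 2 and higher in pair 3, while its mean was 604 in SP3 and 966 in SP4. Ccr9, the receptor for the thymic chemokine CCL25, had 1309, 1864 and 864 in SP2 and 1516, 2189 and 1811 in SP1 (log2 fold change -0.50, adjusted p = 0.466 with the block). Cxcr4, the receptor for CXCL12, had 564, 666 and 1248 in SP2 and 991, 874 and 1206 in SP1, and Foxo1, a factor upstream of Klf2, had 707, 675 and 1096 in SP2 and 530.1, 544 and 830.4 in SP1. The log2 fold changes of Ccr4, Plxnd1 and H2-D1 were -0.24, -0.08 and 0.23.

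Thy1, the gene of the protein that carries the 6C10 epitope, had 1295, 477 and 936 in SP2, against 1852, 2025 and 770.0 in SP1. The SP2 array was below its partner in pairs 1 and 2 and above it in pair 3 (log2 differences of -0.51, -2.05 and 0.28), so the order of the subsets was not the same in every pair (log2 fold change -0.76, adjusted p = 0.611 with the block). Of 42 measured genes for Thy-1 and the enzymes that build glycans, 0 were called, 10 were higher and 6 lower in SP2 in 3 of 3 pairs, and the median log2 fold change was 0.02, against 0.01 over all genes. Over all 18193 genes, 17.8% were higher and 13.7% lower in 3 of 3 pairs, 4.92% lay above with no overlap and 2.81% below with none. Of all genes 8997 had a mean intensity over 50, so these shares include many dim genes and are a rough background for the lists.

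Single enzymes of this list differed with no overlap, beside St8sia6 given above. B3gnt5, which starts the lacto-series glycolipids, had 53.2, 55.8 and 59.4 in SP2, against 80.3, 88.9 and 91.2 in SP1 (log2 fold change -0.51, adjusted p = 0.185 with the block). The log2 differences within pairs were alike, at -0.48, -0.55 and -0.51. St3gal1, a sialyltransferase that caps core 1 O-glycans, had 94.6, 102 and 99.3 in SP2 and 60.5, 73.8 and 86.4 in SP1. St6galnac3, another sialyltransferase, was higher in 3 of 3 pairs although its subsets overlapped, at 160.1, 192 and 81.0 in SP2 and 119.8, 116 and 58.3 in SP1.

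Genes of the interferon response were mostly higher in SP2. Of 30 measured, 26 had a higher value in SP2, while 0 were called. In 3 of 3 pairs 21 were higher and 0 lower, against 17.8% and 13.7% of all genes. The 2 sets are unlike in level, as 29 of the 30 had a mean intensity over 50, against 8997 of all 18193 genes. The list was also chosen with earlier results of these data known. With no overlap 12 lay above SP1, against 4.92% of all genes. The median log2 fold change was 0.41, and 18 of the 30 had an unadjusted p under 0.05 with the block and were higher and 0 lower, against 4.55% of all genes higher and 3.92% lower. The medians in pairs 1, 2 and 3 were 0.55, 0.28 and 0.38, each above 0. In pair 3 the summed double positive markers were 2923 in SP2 and 2914 in SP1, while the myeloid sum was 3574 in SP2 and 2289 in SP1 and the B cell sum 1622 in SP2 and 1365 in SP1. The part that these markers have in the interferon values was not tested. The summed level of the 30 genes was 15652, 14659 and 18095 in SP2 and 10852, 12290 and 13871 in SP1.

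Both sensors and effectors of the response had higher values in SP2. Ifih1, the cytoplasmic sensor MDA5 of long double-stranded RNA, had 404, 520.0 and 423 in SP2, against 261, 248 and 262 in SP1 (log2 fold change 0.76, adjusted p = 0.127 in limma with the block, and 0.0152 with array weights). The lowest SP2 array was well above the highest SP1 array. Iigp1, an interferon-inducible GTPase, had 232, 284 and 454 in SP2 and 118, 180.2 and 305 in SP1, and Gbp6, a guanylate-binding protein, had 616, 661 and 745 in SP2 and 383, 415 and 490.5 in SP1 (log2 fold changes 0.68 and 0.63). Parp14, a mono-ADP-ribosyltransferase, had 378, 459 and 442 in SP2 and 221, 252 and 312 in SP1 (log2 fold change 0.68, adjusted p = 0.16 with the block). Of these only Iigp1 overlapped between the subsets.

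Factors of the pathway had higher values too. Irf9, a factor that binds DNA in the interferon response, had 596, 697 and 616 in SP2 and 416, 432 and 519.6 in SP1. Irf7, which amplifies type I interferon, had 493, 328 and 409 in SP2 and 304, 295 and 299 in SP1. Bst2, which tethers budding viruses, was one of the 4 members with a lower value, at 408, 161 and 393 in SP2 and 357, 349 and 324 in SP1, and it was lower in pair 2 alone. In 29 of the 30 the mean was highest in SP4, and in 26 it was lowest in SP1, with SP3 and SP4 both above SP2 in 20.

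Promoters of many of these genes hold the letters of the interferon-stimulated response element, and 4 are shown, those of the members of largest fold in which at least 15 bases lay between every match and the start. Sequences are from RefSeq (GRCm38.p6, plus strand), lower case with the motif GAAANNGAAA, or TTTCNNTTTC on the other strand, in capitals.
Ifit3, chr19:34583358-34583431: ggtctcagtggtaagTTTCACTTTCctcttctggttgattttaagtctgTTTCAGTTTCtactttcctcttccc
Ifit1, chr19:34640770-34640828: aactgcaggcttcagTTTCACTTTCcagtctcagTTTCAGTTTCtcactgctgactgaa
Stat2, chr10:128270261-128270300: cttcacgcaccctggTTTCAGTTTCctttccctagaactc
Igtp, chr11:58199507-58199546: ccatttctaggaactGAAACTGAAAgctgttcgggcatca
Ifit3, an interferon-induced tetratricopeptide protein, had 179, 164 and 121 in SP2, against 121, 134 and 53.3 in SP1. Ifit1, which binds foreign RNA caps, had 270.1, 236 and 671 in SP2 and 134, 193 and 457 in SP1. Stat2 had 145, 176 and 37.0 in SP2 and 107, 111 and 25.8 in SP1, and Igtp, a GTPase of the immunity-related family, had 2169, 2252 and 2832 in SP2 and 1404, 1789 and 2330 in SP1. All 4 were higher in SP2 in each pair and overlapped between the subsets.

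The motif was searched on both strands in the window from 250 bases before to 50 bases after each start. It lay in 1131 of 32851 windows (3.44%). Counted by gene, it lay in 13 of the 22 interferon response genes that had a window and in 1079 of all 27025 genes with one (3.99%). Of the 13 with the motif 11 were higher in SP2 in 3 of 3 pairs, with a median log2 fold change of 0.41, and of the 9 without it 5 were, with a median of 0.40. The members with and without these letters thus had like medians.

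**Figure D4:**
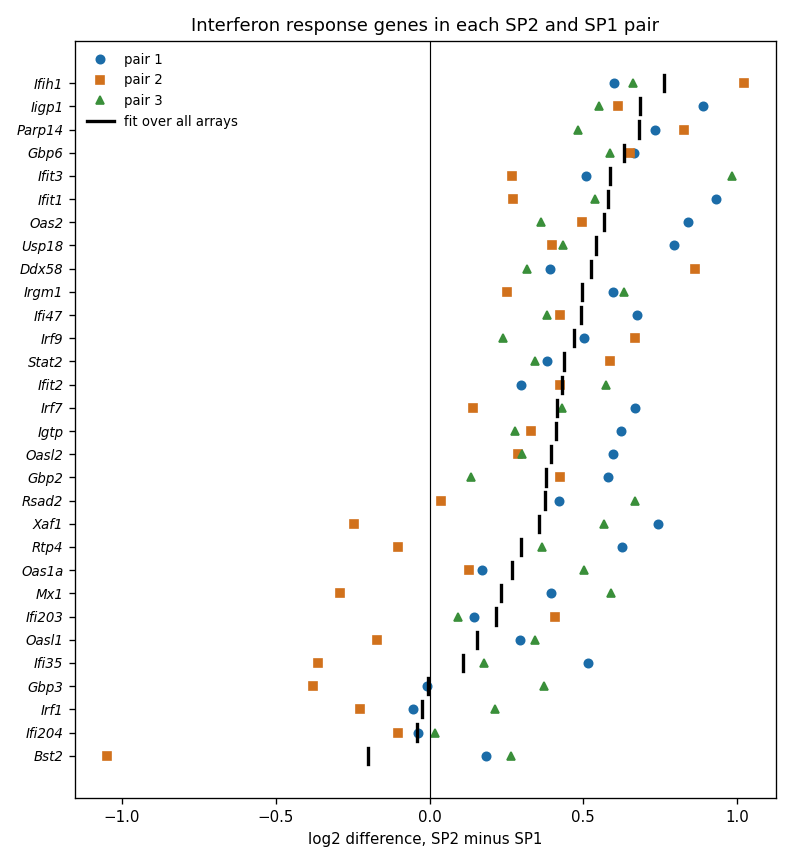
SP2 minus SP1 log2 difference (horizontal axis) of each of the 30 measured interferon response genes in each of the 3 pairs, with black bars at the fold change of the fit over all arrays. The median is 0.41, and 21 genes have all 3 pairs above 0.

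Antigen presentation by class I showed a smaller difference of the same sign. Of 17 measured genes 8 were higher in SP2 in 3 of 3 pairs and 0 lower, against 17.8% and 13.7% of all genes. The median log2 fold change of the 17 was 0.17 and 0 were called. Tapbp, the chaperone that bridges class I to the peptide transporter, had 2554, 2718 and 1879 in SP2, against 1823, 1837 and 1586 in SP1. Tap1, a chain of that transporter, had 533, 617 and 572 in SP2 and 410.4, 443 and 447 in SP1. Nlrc5, the transactivator of class I genes, had 761, 836 and 709 in SP2 and 523, 639 and 568 in SP1. These 3 had no overlap, at log2 fold changes of 0.43, 0.39 and 0.41.

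Of 44 genes of egress and the naive state, 18 were higher in SP2 in 3 of 3 pairs and 1 lower. The shares over all genes were 17.8% and 13.7%. With no overlap 7 lay above SP1 and 0 below, against 4.92% and 2.81% of all genes. The median log2 fold change of the 44 was 0.15, and by the probe set of highest mean 0 were called. Igfbp4, Klf2 and Itgb7, given above, led this list on the higher side. Klf4, a quiescence factor, had 48.6, 13.9 and 196 in SP2 and 94.5, 106 and 181 in SP1, lower in pairs 1 and 2 only. S1pr4, a second sphingosine 1-phosphate receptor, had 186, 149 and 161 in SP2 and 133, 135 and 111 in SP1, with no overlap. In 36 of the 44 the mean was highest in SP4.

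Of 20 chemokine receptors and plexin D1, 15 had a lower value in SP2 and 5 a higher one. In 3 of 3 pairs 5 were lower and 4 higher, against 13.7% and 17.8% of all genes. With the block 5 lower and 2 higher ones had an unadjusted p under 0.05, against 3.92% and 4.55% of all genes. The median log2 fold change of the 20 was -0.12 and 0 were called. Ccr8, found on medullary SP cells and some regulatory T cells, had 194, 139 and 119.9 in SP2 and 91.0, 116 and 100 in SP1, with no overlap, and Ccr7 was described above.

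Cytokine receptors and their signalling proteins held more genes higher in SP2. Of 41, 19 were higher in 3 of 3 pairs and 4 lower, against 17.8% and 13.7% of all genes. The median log2 fold change of the 41 was 0.19 and 0 were called. Il27ra, the interleukin 27 receptor, had 443, 517 and 339.8 in SP2, against 277, 304 and 246 in SP1 (log2 fold change 0.61, adjusted p = 0.169 with the block). Tgfbr3, the TGF-β co-receptor betaglycan, had 610.4, 1032 and 613 in SP2 and 383, 425 and 472 in SP1 (log2 fold change 0.76, adjusted p = 0.193 with the block). Neither overlapped. Il6ra, the interleukin 6 receptor, had 166, 132 and 424 in SP2 and 102, 104 and 172 in SP1. Il7r, the receptor for interleukin 7 that sustains naive cells, had 2105, 3974 and 2089 in SP2 and 1491, 1787 and 2174 in SP1, with its largest difference in pair 2.

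Costimulatory receptors and the TNF family had 12 of 29 higher in SP2 in 3 of 3 pairs and 3 lower. Over all genes these shares were 17.8% and 13.7%. The median log2 fold change of the 29 was 0.18 and 0 were called. Tnfrsf9 led. Tnfsf8, the ligand of CD30, had 59.6, 68.6 and 76.3 in SP2, against 36.3, 45.3 and 46.5 in SP1, with no overlap. Tnfrsf4, the receptor OX40, had 919, 745 and 2186 in SP2 and 536, 595 and 1596 in SP1, and Bcl3, an atypical IκB protein, had 91.9, 55.4 and 169 in SP2 and 47.7, 50.1 and 78.8 in SP1. Both of these overlapped between the subsets and kept the same order in each pair.

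Genes of T cell receptor signals and the immediate early response had members on both sides, at shares near those of all genes. Of 34, 7 were higher and 5 lower in SP2 in 3 of 3 pairs, against 17.8% and 13.7% of all genes. The median log2 fold change of the 34 was 0.01. Fos, an AP-1 subunit, had 2159, 2055 and 1926 in SP2, against 3486, 3214 and 2588 in SP1, with no overlap (log2 fold change -0.58, adjusted p = 0.291 with the block). Jun, its partner, had 354, 206 and 152 in SP2 and 792, 764 and 158 in SP1, alike in pair 3. Irf4, induced in proportion to receptor signal, had 223, 415 and 530.4 in SP2 and 135, 199 and 345 in SP1, higher in each pair. Nr4a1, a reporter of receptor signals, had 2183, 2478 and 2925 in SP2 and 2466, 2444 and 3688 in SP1, and Nr4a2 was lower as given above. Rgs16, a regulator of G protein signalling, had 118, 107 and 152 in SP2 and 85.8, 69.3 and 87.6 in SP1, with no overlap.

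Of 32 genes of the receptor complex and proximal signalling 6 were higher and 3 lower in 3 of 3 pairs. Over all genes these shares were 17.8% and 13.7%, and the median log2 fold change of the 32 was 0.13. Cd6, a scavenger-type co-receptor, had 1370, 1622 and 1475 in SP2 and 939, 1076 and 1244 in SP1. Ubash3b, a phosphatase that limits receptor signals, had 145, 185 and 187 in SP2 and 100.2, 111 and 138 in SP1. Sh2d1a, the adaptor SAP of SLAM receptors, had 372, 253 and 624 in SP2 and 572, 819 and 962 in SP1 (log2 fold change -0.95, adjusted p = 0.2 with the block). Cd5, whose level follows the strength of self-recognition, had 3380, 3821 and 2470 in SP2 and 2098, 2377 and 2117 in SP1, with no overlap (log2 fold change 0.53, adjusted p = 0.243 with the block).

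The 32 factors of CD4 lineage and T cell identity had 4 higher and 8 lower in SP2 in 3 of 3 pairs. Over all genes these shares were 17.8% and 13.7%, and the median log2 fold change of the 32 was -0.05. Zbtb7b, which encodes the CD4 lineage factor ThPOK, had 219, 255 and 208 in SP2 and 181, 235 and 218 in SP1, overlapping. Dtx1, a Notch-linked ubiquitin ligase, had 173, 161 and 281 in SP2 and 125, 133 and 148 in SP1, with no overlap, and Myb had 759.7, 674 and 823 in SP2 and 1490, 1277 and 765 in SP1, lower in pairs 1 and 2 only.

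CD25+ cells were gated out, and of 15 regulatory T cell markers 6 were higher in SP2 in 3 of 3 pairs and 1 lower. Over all genes these shares were 17.8% and 13.7%, and the median log2 fold change of the 15 was 0.18. Foxp3, the defining factor, was dim, at 31.8, 42.5 and 17.7 in SP2 and 24.9, 23.5 and 13.0 in SP1, and was higher in SP2 in 3 of 3 pairs with overlap. Gpr83, a receptor enriched in regulatory cells, had 399, 607 and 451 in SP2 and 193, 225 and 377 in SP1 (log2 fold change 0.87, adjusted p = 0.169 with the block). Nrp1, a semaphorin receptor of these cells, stood the other way, at 77.3, 41.4 and 49.9 in SP2 and 219, 209 and 77.8 in SP1 (log2 fold change -1.27, adjusted p = 0.193 with the block). Both had no overlap, in opposite directions.

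Proliferation differed in direction between the pairs. The 42 genes of the cell cycle had medians of -0.38, -0.37 and 0.49 in pairs 1, 2 and 3. Of them 2 were higher and 1 lower in 3 of 3 pairs, against 17.8% and 13.7% of all genes. None was called. The summed level of the 42 was 30348, 28799 and 22194 in SP2 and 35449, 35166 and 16460 in SP1, lowest in replicate 3 of both subsets. Mki67, a marker of cycling cells, had 1234, 1342 and 678 in SP2 and 1485, 1559 and 349 in SP1. Ccnd2 was thus higher in SP2 in pairs whose cycle genes were lower and in the pair whose cycle genes were higher.

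The lists of metabolism held more lower than higher values in SP2, with 0 called. The 37 respiratory genes had medians of -0.07, -0.90 and 0.00 in pairs 1, 2 and 3, with the lowest sum in SP2 replicate 2, as with Cox5b at 1252, 517 and 1343 in SP2 and 1431, 1339 and 1282 in SP1. Among 23 genes of cholesterol, 2 were higher and 8 lower in 3 of 3 pairs, against 17.8% and 13.7% of all genes. The median of the 23 was -0.23. Sqle, an enzyme of synthesis, had 119, 119 and 65.5 in SP2 and 262, 265 and 71.7 in SP1, while Abca1, the exporter, had 264, 342 and 361 in SP2 and 167, 194 and 175 in SP1, with no overlap (log2 fold change 0.79, adjusted p = 0.166 with the block). Among 19 genes of glycolysis and glucose transport 14 had a lower value in SP2. In 3 of 3 pairs 7 were lower and 1 higher, against 13.7% and 17.8% of all genes. The medians of the 19 in the pairs were small, at -0.05, -0.08 and -0.11. Hk2, a hexokinase, had 68.9, 65.5 and 98.8 in SP2 and 114, 109.7 and 134 in SP1, with no overlap. Eno3, an enolase and the 1 gene higher in 3 of 3 pairs, had 308, 276 and 312 in SP2 and 149, 184 and 182 in SP1 (log2 fold change 0.75, adjusted p = 0.127 with the block), also with no overlap.

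Death genes, housekeeping genes and markers of other cells complete the lists. Of 26 genes of the BCL2 family and death 9 were higher and 2 lower in 3 of 3 pairs. Over all genes these shares were 17.8% and 13.7%, and the median log2 fold change of the 26 was 0.04. Bid, a BH3-only protein, had 136, 119 and 72.9 in SP2 and 285, 308 and 69.9 in SP1, alike in pair 3. The 13 housekeeping genes had a median of 0.03, with 0 higher and 2 lower in 3 of 3 pairs, and 23 heat shock and stress genes had a median of -0.06. Markers of natural killer T and innate-like T cells had a median of -0.22 (25 genes), those of activated or memory T cells -0.27 (19), γδ T cells -0.26 (5), epithelial and stromal cells -0.06 (20) and erythroid cells 0.00 (9), with 0 called in each. Zbtb16, which encodes PLZF, the defining factor of natural killer T cells, had 31.7, 28.6 and 21.5 in SP2 and 36.9, 25.8 and 12.9 in SP1.

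**Figure D5:**
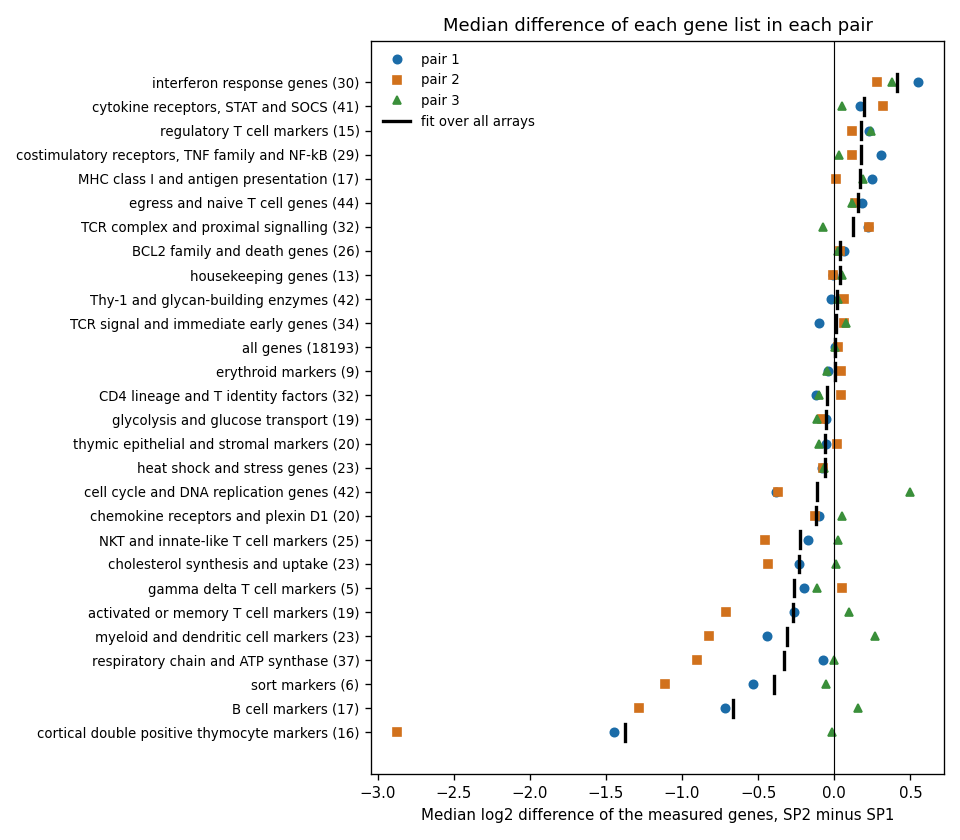
Median SP2 minus SP1 log2 difference (horizontal axis) of the measured genes of each of 27 lists (vertical axis, number of genes in brackets) in pairs 1, 2 and 3, with black bars at the median fold change of the fit over all arrays. Interferon response genes lie above 0 in all 3 pairs (0.55, 0.28 and 0.38), whereas double positive markers have -1.45, -2.87 and -0.01.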

How the data were processed

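RNA from 12 sorted preparations, 3 of each subset, was measured on the Mouse Genome 430 2.0 array of Affymetrix. The deposited table holds 1 normalized intensity per probe set and array on a linear scale. The authors' methods name RMA and the labels name MAS5, so which of these made the values is not settled. The sources used here give no tool version and no build. Table columns were matched to samples by title, and 0 value columns were left unmatched.

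An offset of 16 was added before log2. All 45037 probe sets were fitted with limma 3.58.1 (R 4.3.3) over 12 arrays with 1 mean per subset, eBayes with a trend and Benjamini-Hochberg adjustment. Fold changes are SP2 minus SP1 on the log2(intensity + 16) scale, which understates changes of dim genes. The methods compare unpaired classes, so that fit is the one without the block. A second fit added the replicate number as a block. The deviations from the subset means of same-numbered SP2 and SP1 arrays correlated at 0.502 to 0.794, and same-numbered arrays of all subsets at 0.279 to 0.883. The replicate numbers are those of the sample titles, and the arrays were taken as paired because every same-numbered correlation was positive at these values. The paper's figure legends also name 3 array repeats, each under its own code and each with SP1 to SP4. They do not say which code belongs to which replicate number. Arrays of other numbers correlated at -0.725 to 0.531 between SP2 and SP1 and at -0.812 to 0.729 over all subsets. SP1 replicate 2 stood closer to SP2 replicate 1 (0.531) than to SP2 replicate 2 (0.502). The correlations thus set replicate 3 apart more clearly than replicates 1 and 2 from each other. The replicates are separate preparations of pooled thymi, and the number of arrays limits the precision.

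Platform annotation gave 1 gene to 34945 probe sets, several to 932 and none to 9160. For 18193 genes the probe set with the highest mean over all arrays stood for the gene. Named genes are those the study names, the 15 of each direction ranked by call and then by p with the block among genes of the same direction in 3 of 3 pairs, and up to 4 members of largest fold per list. Other names were chosen after their values were seen. The members and the 27 lists were chosen with earlier results of these data known. No list was given a set test. One called gene is not reported here. The fit was tested on simulated data. Alternatives were the offset, a mean intensity over 50, a further quantile normalization, array weights, no trend, the 6 arrays alone, the mean over a gene's probe sets, and leaving out arrays. Promoter windows were RefSeq's (GRCm38.p6).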

Additional observations from a re-analysis of the deposited data

How the results depend on the processing

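Without the block no probe set passed, and with the replicate block 4 were higher and 0 lower. The settings below changed the counts. Higher probe sets with fold over 2 numbered 5 with the block at an offset of 1, 5 with mean intensity over 50, 5 after quantile normalization, 9 with array weights, 5 with replicate 3 left out and 0 at an offset of 64. At any fold they numbered 6 at an offset of 1, 3 at an offset of 64, 7 with mean intensity over 50, 6 after quantile normalization, 337 with array weights and 6 with replicate 3 left out. Lower probe sets numbered 285 with array weights (37 with fold over 2), and with replicate 3 left out 11 without the block (7 with fold over 2) and 36 with it (27 with fold over 2). The 6 arrays alone gave 0 calls with the block. Leaving out 1 array gave 0 to 6 higher and 0 to 10 lower probe sets with fold over 2, and 0 to 7 higher and 0 to 12 lower at any fold. Leaving out a whole replicate with the block, and averaging a gene's probe sets with it, were chosen after seeing the data.

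Some named values changed sign, none of them called. S1pr1 was -0.23 with replicate 3 left out, Cd4 -0.17 with replicate 1 left out and -0.0097 over the mean of its probe sets, and Cd69 0.014 after quantile normalization and 0.018 with replicate 2 left out. Il2ra was -0.12 with array weights, -0.094 with replicate 3 left out, -0.0036 with replicate 2 left out and -0.020 over the mean of its probe sets. With replicate 2 left out, Cycs was 0.021, Birc5 0.15, Cox7a2 0.0063, Hspe1 0.031, Rps18 0.11 and Klrd1 0.13. Without the block and with 1 array left out, values ranged from -0.59 to 0.22 for Ccr4, -0.33 to 0.24 for Plxnd1, -0.15 to 0.24 for Cd4, -0.38 to 0.26 for Cd69, -0.068 to 0.43 for Il2ra, -0.69 to 0.038 for Cycs, -0.68 to 0.011 for Hspe1, -0.017 to 0.45 for Eef2, -0.28 to 0.11 for Rps18, -0.060 to 0.24 for Cd163l1 and -0.19 to 0.84 for Pecam1. With the block and 1 array left out, Plxnd1 reached 0.029 and 0.081, S1pr1 -0.11 and -0.00069, Cd4 -0.062, -0.16, -0.050 and -0.0041, Cd69 0.22 and 0.13, Il2ra -0.15 and -0.072, Hspe1 0.0078, Rps18 0.11, Cd163l1 -0.0048 and Tfrc 0.014. The causes were not tested. Without SP2 replicate 3, Cd8a (-2.42, adjusted p = 0.041), Bach1 (-1.10, 0.041), H2-Q2 (-1.43, 0.0376) and BC035044 (-1.34, 0.0429) passed with the block in limma, and without SP1 replicate 3 so did Fosb (-1.44, 0.0348).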
